A study of Rattus norvegicus with 21 samples.

Results

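The 9 transcription factors Pdx1, Mafa, Nkx6-1, Nkx2-2, Neurod1, Isl1, Pax6, Foxa2 and Rfx6, which set and hold the identity of the pancreatic beta cell, were read by gene name from an mRNA table of 32750 genes. Each name matched 1 gene, and all 9 genes passed the filter for testing, a mean of at least 10 normalized counts over the libraries. The cells were INS-1 832/13, an insulin-secreting line grown from a rat insulinoma, a tumour of beta cells. The line is a single clone, derived from INS-1 cells given a plasmid for human insulin, so its libraries describe 1 cell population and not islets of separate animals.

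For the mRNA, 4 libraries came from untreated cells and 5 from cells given inorganic arsenic (iAs) at 1 µM for 24 h. Small RNA was sequenced from the same line in 3 libraries per group: untreated, iAs at 1 µM, cadmium (Cd) at 5 µM and manganese (Mn) at 25 µM, each for 24 h. Nothing in the labels ties the replicates of a group to separate cultures, and the p-values therefore rest on a spread that may be technical. All untreated mRNA libraries were read on lane 3 and all iAs libraries on lane 4, so lane and treatment cannot be told apart.

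Hmox1 and Mt1, which arsenic is known to induce, ran opposite to the labels: Hmox1 differed by -3.06 and Mt1 by -2.04, both lower in the libraries labelled iAs. Txnip, named with them as a check on the direction of the labels, differed by 3.14 and was higher in the libraries labelled iAs. Whether the group labels of the mRNA libraries were exchanged was not tested. Each direction given here, including that of Nkx6-1, is therefore that of the libraries labelled iAs against those labelled untreated. The column totals of the 9 libraries lay between 51009800 and 55869159 normalized counts.

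Beta cells are specified and then maintained by a network of factors that bind one another's genes and, together, the genes for insulin, glucose uptake and granule processing. Pdx1, Neurod1 and Mafa bind the insulin promoter itself. Nkx6-1 and Nkx2-2 also hold genes of other islet cell types silent, and loss of Nkx6-1 from adult beta cells is known to lower insulin production and secretion.

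Of the 9 factors, Nkx6-1 alone passed the test, and it was lower in the libraries labelled iAs, at 0.726 times the untreated level. The others differed by between -0.16 and 0.13 on the log2 scale, with adjusted p between 0.19 and 0.87 (limma, Benjamini-Hochberg over 14410 genes). The count of 1 in 9, or 11.1%, stands against 30.0% of all genes tested that were called in either direction, 15.1% higher and 14.9% lower in iAs. The median difference of the 9 factors was -0.05, beside -0.0007 for all genes tested.

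Before the factors are taken in turn, the promoter of Nkx6-1, the factor that was called, is shown with that of Pdx1, whose values had the highest correlation with it among the factors within the groups over all 9 libraries. Each line gives the 250 bases before the annotated start in RefSeq (build GRCr8), 5′ to 3′ on the gene's strand. Capitals mark E-boxes (CANNTG, the motif bound by Neurod1 with its E-protein partners) and the homeodomain core TAAT, which reads ATTA on the opposite strand.
Nkx6-1, chr14:8273988-8274237, plus strand: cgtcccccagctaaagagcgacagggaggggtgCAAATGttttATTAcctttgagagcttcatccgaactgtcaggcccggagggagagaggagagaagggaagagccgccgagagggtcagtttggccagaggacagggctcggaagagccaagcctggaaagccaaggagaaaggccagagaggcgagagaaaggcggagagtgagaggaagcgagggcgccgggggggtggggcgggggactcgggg
Pdx1, chr12:12799157-12799406, minus strand: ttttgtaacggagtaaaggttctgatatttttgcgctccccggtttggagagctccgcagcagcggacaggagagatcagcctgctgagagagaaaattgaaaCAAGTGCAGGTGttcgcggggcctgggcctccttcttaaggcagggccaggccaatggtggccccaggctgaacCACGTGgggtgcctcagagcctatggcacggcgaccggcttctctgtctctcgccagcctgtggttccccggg
The Nkx6-1 window held 1 E-box and 1 TAAT core. The Pdx1 window held 3 E-boxes, of which the first pair lie end to end in the longer capital run, and no TAAT core.

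RefSeq promoters were matched for 7 of the 9 factors, all but Mafa and Rfx6. An E-box lay in 4 of the 7 windows, against 65.5% of 33469 rat promoter windows of the same length searched on both strands. The TAAT core lay in 4 of 7, against 57.0%. A core of the antioxidant response element (TGACNNNGC) lay in 0 of 7, against 10.1%. The TATA box (TATAAA) lay in 1 of 7, against 12.9%, and that window belonged to Foxa2, while CCAAT lay in 2 of 7, against 34.0%. No match of 1 motif shown above overlaps a match of another, and each is a run of letters and not a shown binding site. The GC content of the 7 windows ran from 42% (Pax6) to 69.2% (Neurod1), beside a median of 51.2% over all windows, and they held 5 to 21 CpG dinucleotides, beside a median of 5.

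Values below are normalized counts, the authors' read counts after division by DESeq2 normalization factors. They compare 1 gene across libraries and not genes with each other, since they are not scaled to transcript length. Log2 differences are iAs minus untreated on the log2(value + 1) scale.

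Nkx6-1 (ENSRNOG00000002149), a homeodomain repressor, was measured at 8007, 10587, 7699 and 8041 in untreated replicates 1 to 4. In iAs replicates 1 to 5 it was measured at 6743, 5808, 7011, 5664 and 5790. Every iAs library lay below every untreated library, and 1 of the 9 factors was separated in this way. Of all genes tested, 25.9% were without overlap in either direction and 12.9% in the lower direction. The means were 8583 ± 1344 (SD, n = 4) and 6203 ± 625 (SD, n = 5), and Nkx6-1 fell by 0.46 on the log2 scale (SE 0.10, 95% interval -0.68 to -0.25, limma adjusted p = 0.0041). The geometric mean of Nkx6-1 differed by -27.4%.

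Untreated replicate 2 stood well above the other untreated libraries for Nkx6-1, at 1.34 times their mean. Without it the difference of Nkx6-1 was -0.36 (limma adjusted p = 0.0056), the smallest among the fits that left out 1 library. Within the libraries whose code ends in 52 (2 untreated, 3 iAs) the difference was -0.38 (limma adjusted p = 0.0154). The pair coded 0C513 and 1B513 gave -0.59 and the pair coded 0C922 and 1A922 gave -0.47, each with 1 library a group and hence no test. What the endings of these codes stand for is not given in the labels.

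**Figure D1:**
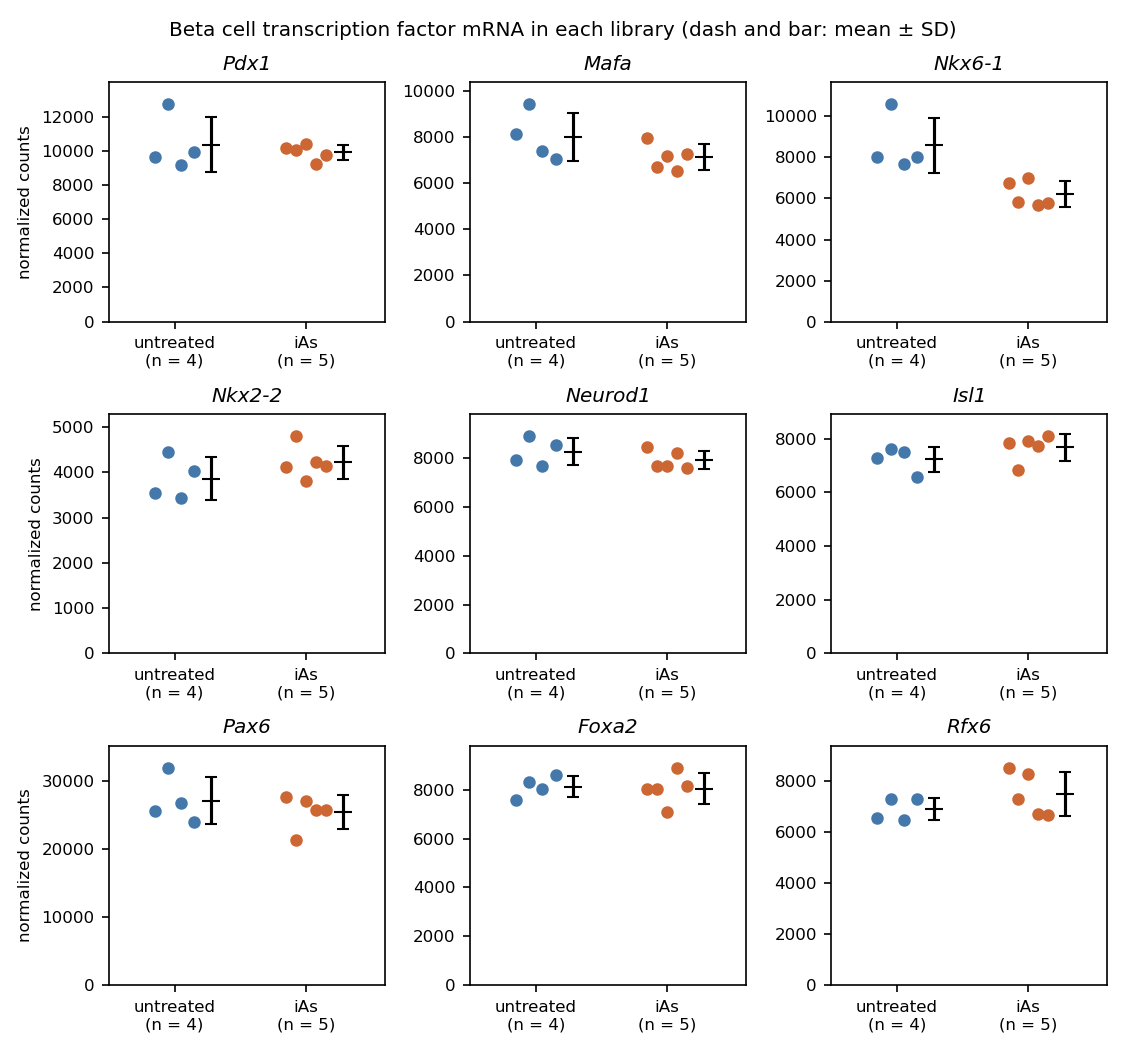
Normalized counts of the 9 factors in each mRNA library (points, vertical axes from 0), with the mean and SD of each group to the right of its points. The 5 iAs libraries of Nkx6-1, at 5664 to 7011, lie below the 4 untreated ones, at 7699 to 10587, while the groups of the other 8 factors overlap.

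Pdx1 (ENSRNOG00000046458), the homeodomain activator that specifies the pancreas and later drives Ins1, Ins2 and Slc2a2, gave 9625, 12721, 9158 and 9955 in the untreated libraries. In iAs it gave 10174, 10054, 10371, 9243 and 9740. The iAs values lay inside the untreated range, and the highest value of all was again untreated replicate 2. The difference of Pdx1 was -0.05 (95% interval -0.24 to 0.13, limma adjusted p = 0.68), and it was 0.05 without that library.

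Mafa (ENSRNOG00000007668), the leucine zipper activator of insulin genes in mature beta cells, gave 8108, 9407, 7397 and 7028 untreated and 7965, 6689, 7186, 6535 and 7256 in iAs. Of the iAs libraries, 2 lay under the lowest untreated one, and the groups overlapped. The difference of Mafa was -0.16 (95% interval -0.34 to 0.03, limma adjusted p = 0.19), whose lower bound is a fold of 0.788. Mafa had the largest difference among the 8 factors that did not pass the test.

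Neurod1 (ENSRNOG00000005609), the bHLH factor that binds the insulin E-box, gave 7933, 8910, 7676 and 8540 untreated and 8451, 7660, 7696, 8213 and 7583 in iAs. The groups overlapped, with 2 iAs libraries under the lowest untreated one and the untreated values 8910 and 8540 above the highest iAs one. The difference of Neurod1 was -0.06 (95% interval -0.19 to 0.07, limma adjusted p = 0.47).

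Nkx2-2 (ENSRNOG00000012728), a homeodomain factor needed for beta cell formation and for keeping alpha cell genes off, gave 3544, 4448, 3425 and 4040 untreated. In iAs it gave 4130, 4807, 3817, 4236 and 4132. Only iAs replicate 2 exceeded the highest untreated library, untreated replicate 2. The difference of Nkx2-2 was 0.13 (95% interval -0.05 to 0.32, limma adjusted p = 0.27). It was 0.26 within the libraries with code ending 52 (limma adjusted p = 0.0198), -0.22 in the pair coded 0C513 and 1B513 and 0.25 in the pair coded 0C922 and 1A922, so its call and its direction were not the same across the endings.

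Isl1 (ENSRNOG00000012556), a LIM-homeodomain factor of all islet endocrine cells that works with the adaptor Ldb1, gave 7272, 7608, 7489 and 6568 untreated and 7823, 6831, 7911, 7715 and 8099 in iAs. Of the 5 iAs libraries, 4 lay above the highest untreated one and replicate 2 lay near the bottom. The difference of Isl1 was 0.09 (95% interval -0.05 to 0.22, limma adjusted p = 0.34).

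Pax6 (ENSRNOG00000004410), a paired-domain factor of endocrine cells, gave 25597, 31966, 26788 and 24034 untreated and 27679, 21252, 27078, 25688 and 25704 in iAs. Untreated replicate 2 was the highest and iAs replicate 2 the lowest. The difference of Pax6 was -0.09 (95% interval -0.29 to 0.11, limma adjusted p = 0.52).

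Foxa2 (ENSRNOG00000013133), a forkhead factor that opens chromatin at Pdx1 and other foregut genes, gave 7576, 8315, 8054 and 8603 untreated and 8027, 8020, 7107, 8919 and 8178 in iAs. Both the highest and the lowest value were iAs libraries. The difference of Foxa2 was -0.02 (95% interval -0.16 to 0.12, limma adjusted p = 0.87).

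Rfx6 (ENSRNOG00000027949), a winged-helix factor acting in endocrine differentiation and insulin secretion, gave 6568, 7284, 6489 and 7287 untreated and 8529, 7303, 8286, 6694 and 6659 in iAs. Replicates 1 and 3 of iAs stood above all others, and the remaining 3 lay within or next to the untreated range. The difference of Rfx6 was 0.11 (95% interval -0.07 to 0.29, limma adjusted p = 0.33).

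Across the 8 factors that did not pass the test, the 95% intervals stayed between -0.34 and 0.32, or between 0.788 and 1.25 times the untreated level. These bounds are the extremes over 8 separate intervals. A change beyond them lies outside the interval of each of the 8 factors. A smaller change can lie inside the interval of 1 factor and outside that of another. Leaving out any 1 of the 9 libraries kept the count of called factors at 1.

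**Figure D2:**
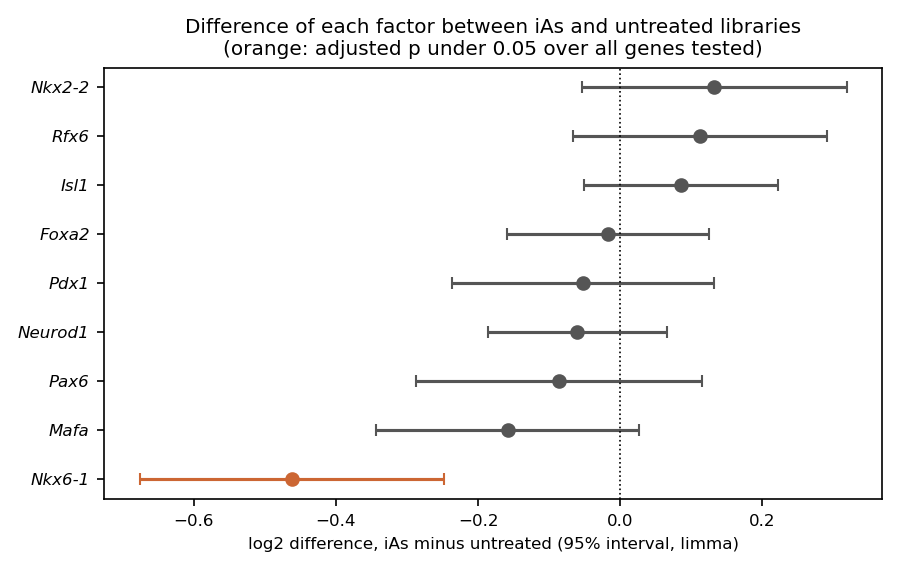
Log2 difference (horizontal axis, iAs minus untreated) of each factor with its 95% interval from limma. The interval of Nkx6-1, from -0.68 to -0.25, lies wholly below 0, and the other 8 intervals include 0.

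Untreated replicate 2, coded 0C513, was the highest of the 4 untreated libraries for 7 of the 9 factors and the lowest for none. Over all genes tested it was the highest for 28.6% and the lowest for 31.7%. Its excess over the mean of the other untreated libraries was 1.34 times for Nkx6-1, 1.33 for Pdx1, 1.25 for Mafa, 1.25 for Pax6 and 1.21 for Nkx2-2. It was smaller for Neurod1 (1.11), Isl1 (1.07), Rfx6 (1.07) and Foxa2 (1.03). Untreated replicate 3 was the lowest of the 4 for 5 factors, beside 17.2% of all genes tested. Among the iAs libraries replicate 1 was the highest for 4, beside 20.2% of all genes tested.

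**Figure D3:**
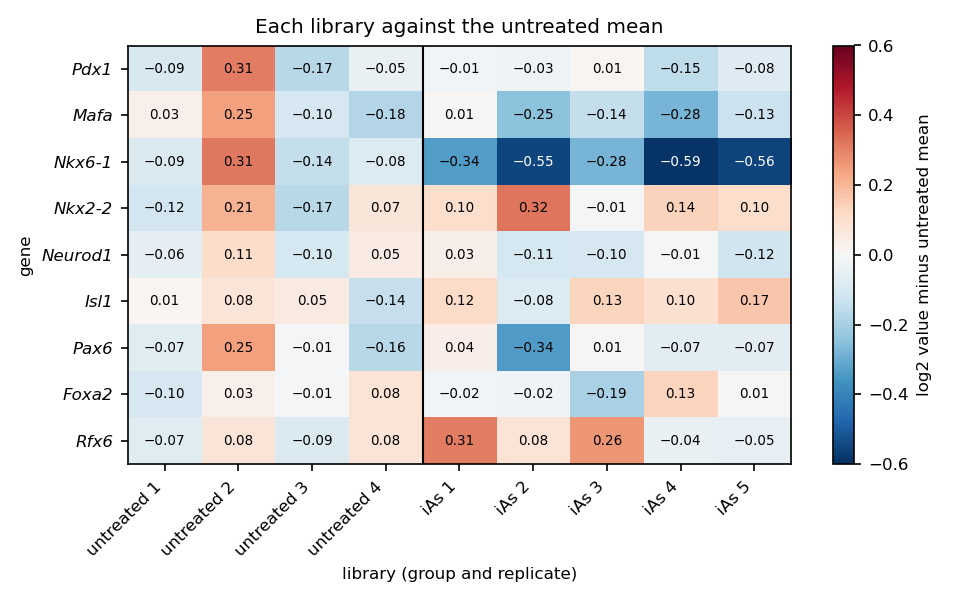
Log2 value of each factor (rows) in each library (columns) minus the mean of the untreated libraries, with the colour scale running from blue (lower) to red (higher). The column of untreated replicate 2 is above 0 in every row, and the Nkx6-1 row is below 0 in all 5 iAs columns.

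Since a library that is high for 1 factor was often high for several, Nkx6-1 was also set against each other factor inside the same library. The ratio of Nkx6-1 to Pdx1 was 0.832, 0.832, 0.841 and 0.808 in the untreated libraries. It was 0.663, 0.578, 0.676, 0.613 and 0.595 in the iAs libraries. The untreated ratios lay close together although the values of both genes in replicate 2 did not, and every iAs ratio was lower. The ratio's log2 difference was -0.41.

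The ratio of Nkx6-1 to Mafa differed least, by -0.30, and that to Nkx2-2 most, by -0.59. The iAs ratios lay below all untreated ratios for 7 of the 8 partners in the ratio and overlapped them for Foxa2. These ratios were formed after Nkx6-1 was seen to be lower and share its values, so they describe the same libraries and carry no test.

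**Figure D4:**
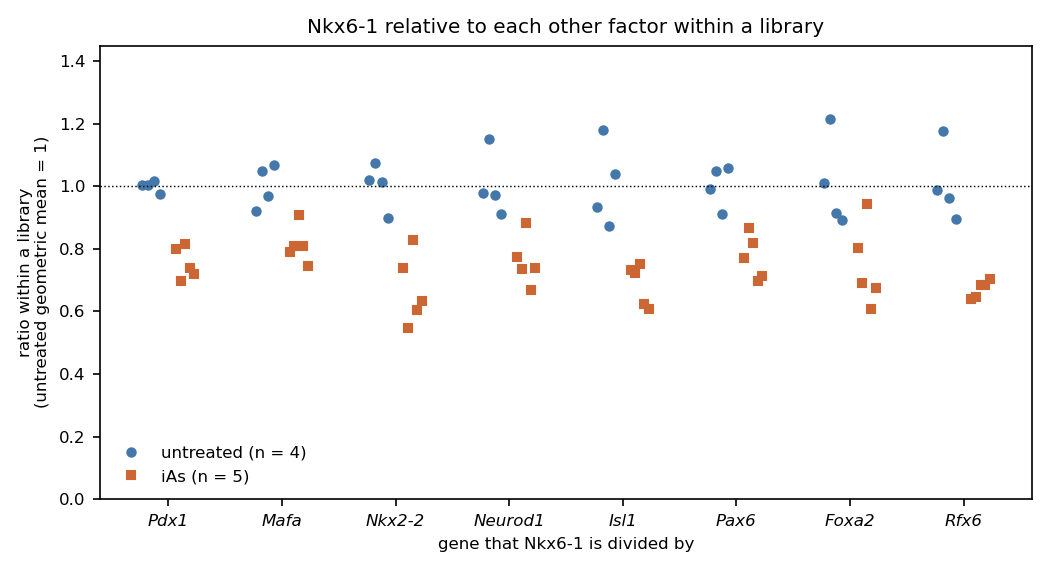
Ratio of Nkx6-1 to each other factor within a library (vertical axis from 0, scaled so that the geometric mean of the untreated libraries is 1), with untreated libraries as circles and iAs libraries as squares. Squares lie below circles for 7 of the 8 factors and overlap them for Foxa2.

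Factor levels moved together to unequal degrees once each group's mean was removed. Over the 9 libraries, Pearson's r was 0.90 between Pdx1 and Nkx6-1, 0.85 between Isl1 and Pax6, 0.81 between Mafa and Nkx6-1 and 0.78 between Mafa and Pax6. The lowest was -0.46, between Nkx2-2 and Isl1. Without untreated replicate 2, over 8 libraries, r was 0.75 between Pdx1 and Nkx6-1, 0.88 between Isl1 and Pax6, 0.57 between Mafa and Nkx6-1, 0.58 between Mafa and Pax6 and -0.93 between Nkx2-2 and Isl1. Nkx6-1 then lay closest to Rfx6 (0.90) among the factors, against 0.74 with that library included. Of these pairs, that of Isl1 with Pax6 moved least when the library was left out. These are descriptions over libraries that share lanes and scaling.

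For each factor, the gene whose log2 values had the highest Pearson r with it over all 9 libraries was taken from 12784 genes. For Nkx6-1 this was Cc2d1a (r = 0.98), which differed by -0.29 (limma adjusted p = 0.0191). For Nkx2-2 it was Hnf4a (r = 0.94), the nuclear receptor of hepatocytes and islets, which differed by 0.07. The others were Dhdh for Pdx1 (0.94), RGD1565059 for Mafa (0.96), Slc38a6 for Neurod1 (0.94), Padi2 for Isl1 (0.96), Prickle3 for Pax6 (0.96), Kdm4c for Foxa2 (0.89) and Prkdc for Rfx6 (0.96). With 9 points and so many genes searched, high values of r arise for every factor.

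MicroRNAs hold the mRNA of several of these factors in check, and 5 have been reported to act on a member: miR-7 on Pax6, miR-204 on Mafa, miR-19b and miR-24 on Neurod1, and miR-124 on Foxa2. The mature sequences of those above the filter, with that of miR-375, an abundant islet microRNA shown for comparison, are given 5′ to 3′ from RefSeq (GRCr8), with capitals for the seed (bases 2 to 8), the stretch that pairs with targets.
miR-24-3p: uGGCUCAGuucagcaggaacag
miR-204-5p: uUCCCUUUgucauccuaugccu
miR-7a-5p: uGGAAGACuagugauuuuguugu
miR-19b-3p: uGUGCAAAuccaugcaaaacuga
miR-375-3p: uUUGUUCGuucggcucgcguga
No seed was shared between them. The copies of miR-24-3p lie at chr17:1818672-1818693 and chr19:40859481-40859502, both on the minus strand, and that of miR-204-5p at chr1:229743493-229743514 on the plus strand.

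In the small RNA libraries miR-24-3p was the called microRNA of this set, and its 2 rows, which stand for 2 precursors, hold identical values. It was measured at 7259, 6743 and 7078 RPMMM (reads scaled to a common total of reads mapped to microRNAs) in untreated libraries and at 6053, 5888 and 5805 in iAs libraries, without overlap. MiR-24-3p fell by 0.25 on the log2 scale (SE 0.05, limma adjusted p = 0.0101), beside 8.41% of 523 rows called in that comparison. Without iAs replicate 3 the difference of miR-24-3p was -0.23 and no longer passed the test (limma adjusted p = 0.0525). Its reported target Neurod1 did not pass the test in the mRNA libraries, which were other libraries than these.

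MiR-7a-5p, reported to act on Pax6, was at 113264 ± 6105 RPMMM (SD, n = 3) untreated and 108808 ± 6500 in iAs in the row of its first precursor. MiR-204-5p, reported to act on Mafa, was at 447 ± 26.0 and 439 ± 4.46, with a limma adjusted p of 0.83. MiR-19b-3p was at 17.4 ± 3.93 and 14.4 ± 2.50, and miR-375-3p at 60803 ± 2962 and 62333 ± 4973. None of these passed the test in iAs. MiR-124-3p lay under the filter, with group means of 0.497 untreated and 1.06 in iAs.

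In the Mn libraries miR-204-5p was at 365 ± 22.6 RPMMM and fell by 0.29 on the log2 scale (limma adjusted p = 0.0296). In Cd it was at 418 ± 27.1 and did not pass the test. MiR-24-3p was at 6333 ± 126 in Cd and 6811 ± 375 in Mn, with limma adjusted p of 0.086 and 0.61. The 3 metals share the untreated libraries, differences between metals were not tested, and no mRNA library of Cd or Mn was analysed here. Alternatives and the share of all rows called were computed for iAs against untreated alone, so the Mn call of miR-204-5p carries neither.

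The other genes of the network were read from lists of known regulators, partners and targets. Of 42 other islet and endocrine transcription factors, 31 passed the filter, 7 rose and 2 fell, with a median of 0.04. The called share of this list was 29.0%, beside 30.0% of all genes tested. Sox9, the factor of duct and progenitor cells, went from 84.5 ± 19.5 to 445 ± 75.7 and rose by 2.40 on the log2 scale (limma adjusted p = 5.9e-06). Gata4, an endoderm factor, went from 2006 ± 185 to 3846 ± 169 and rose by 0.94. Lmx1a (1.87), Hes1 (0.65), the target of Notch signalling, Myt1 (0.55) and Rfx3 (0.48) also rose. Esrrg (-0.30) was among those that fell. The call of Esrrg was lost without any of iAs replicates 1, 3 and 4 or untreated replicates 1, 3 and 4, with limma adjusted p up to 0.0996. Neurog3, the switch of endocrine progenitors, was listed at 0 in every library.

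Of 31 partners and cofactors of the 9 factors, 29 passed the filter, 7 rose and 4 fell, with a median of 0.07. The called share here was 37.9%, beside 30.0% of all genes tested. Tcf3, whose E proteins pair with Neurod1, rose by 0.37, from 4743 ± 234 to 6139 ± 157 (limma adjusted p = 1.8e-04). Ldb1, the adaptor of Isl1, rose by 0.29 and its companions Ssbp2 and Ssbp4 by 0.40 and 0.31. Cited2 (1.01), Pbx3 (0.39), a partner of Pdx1-type homeodomains, and the deacetylase Hdac2 (0.35) rose as well. Tle3, a corepressor of the Groucho family recruited by Nkx factors, fell by 0.42, from 6016 ± 695 to 4483 ± 245 (limma adjusted p = 0.0014). Maff (-1.53) and Mafk (-0.34), small Maf proteins without an activation domain, and Meis3 (-0.61), a partner of Pbx proteins, fell. Leaving out any 1 library kept these counts at 7 or 8 higher and 4 lower.

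Of 33 target genes of the factors in beta cells, all 33 passed the filter, 9 rose and 7 fell, with a median of -0.06. The called share of the target genes was 48.5%, beside 30.0% of all genes tested. Sytl4, a granule docking protein, rose by 0.70 and Fgfr1, a receptor downstream of Pdx1, by 0.77. Slc2a2, the glucose transporter GLUT2, rose by 0.53, although its groups overlapped, and Ero1b (0.53), an oxidase of proinsulin folding, Ovol2 (0.46), Ffar1 (0.40), a receptor of fatty acids, and Scg5 (0.31), the chaperone of Pcsk2, also rose. Ptprn, a granule membrane protein, fell by 0.78, from 76864 ± 1341 to 44847 ± 2433 (limma adjusted p = 3.7e-06). Pcsk2, the prohormone convertase, fell by 0.44 and Glp1r, the receptor of GLP-1, by 0.31. The number of falls was 3 without iAs replicate 2 or untreated replicate 3 and 4 without iAs replicate 3 or untreated replicate 1. The number of rises was 7 without untreated replicate 1 or untreated replicate 3 and between 8 and 10 without any other library, so the called share depends on single libraries.

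The insulin genes themselves did not pass the test. Ins1 differed by -0.27 (95% interval -0.59 to 0.06, limma adjusted p = 0.20) and Ins2 by 0.02 (95% interval -0.35 to 0.39, limma adjusted p = 0.95). Ins1 and Ins2 are near-identical copies whose reads the counting may have split, so each value is uncertain. Iapp, the islet amyloid hormone, differed by -0.15 (limma adjusted p = 0.36).

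Of 24 genes listed as normally repressed in beta cells, 15 passed the filter, 3 rose and 2 fell, with a median of 0.06. Their called share was 33.3%, beside 30.0% of all genes tested. Mgll, a lipase of monoglycerides, went from 36.3 ± 13.5 to 122 ± 14.8, Slc16a1, the pyruvate and lactate carrier MCT1, from 240 ± 68.2 to 402 ± 73.7, and Acot7 from 126 ± 23.2 to 190 ± 26.2. Igfbp4 (-0.32) and Gast (-0.57) fell. The number of falls was 0 by limma without any 1 of iAs replicate 1, iAs replicate 3, untreated replicate 3 and untreated replicate 4, where 6 genes of the list had an unadjusted p under 0.05, and it was 1 without iAs replicate 4, iAs replicate 5 or untreated replicate 1. Ldha, Hk1, Aldh1a3 and Serpina7 were listed at 0 in every library. A value of 0 can be a failed estimate, and Tcf4, a partner of Neurod1, was listed at 0 as well.

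**Figure D5:**
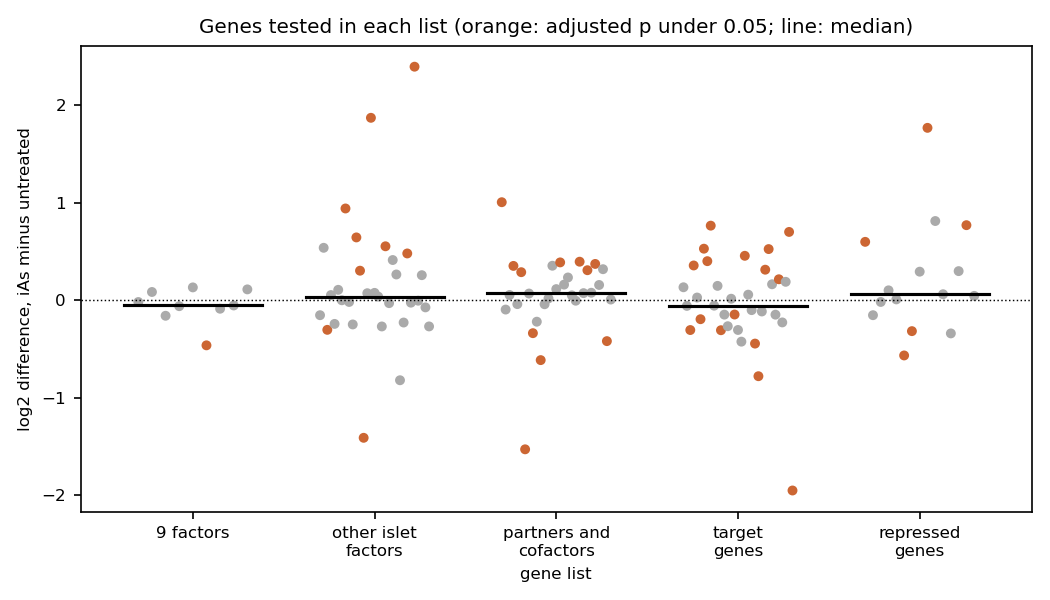
Log2 difference (vertical axis, iAs minus untreated) of every gene tested in the list of 9 factors and in the 4 lists of the network, 1 point a gene, orange where the limma adjusted p is under 0.05, with a line at each median. The 9 factors lie between -0.46 and 0.13, while called genes of the other lists reach 2.40 (Sox9) on the upper side.

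Markers of other cell types were read in the same libraries, and their part in the differences of the 9 factors was not tested. In bulk RNA of this single clone, fewer cells with a marker and less of its RNA per cell cannot be told apart. Of the markers tested, 42.9% were called for alpha cells, 44.4% for acinar and duct cells and 37.5% for hepatocytes. The share was 57.1% for stromal, endothelial and immune markers and 41.7% for neuronal ones, beside 30.0% of all genes tested. Of 13 alpha cell markers 7 had a mean of at least 10, and their sum was 295872 to 351147 untreated and 235108 to 257915 in iAs. Gcg, the glucagon gene, went from 96799 ± 24631 to 61075 ± 11878, with Gcg and Pcsk2 lower and Slc7a2 (0.65) higher among the called. Irx2, Pou3f4 and Loxl4 were listed at 0. Of 10 delta, PP and epsilon markers 2 reached that mean and 0 were called by limma (0 at an unadjusted p under 0.05).

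Of 19 acinar and duct markers 9 reached the mean, with sums of 15483 to 18638 untreated and 16119 to 21650 in iAs. Sox9 rose and 3 markers fell, Rbpjl (-0.57) among them, and Cpa1, Cela1, Prss1, Pnlip and Spp1 were listed at 0. The number of rises was 2 without iAs replicate 2, and the call of Rbpjl was lost without any 1 of 7 libraries, all but iAs replicate 1 and untreated replicate 1. Of 15 hepatocyte markers 8 reached the mean, with sums of 7512 to 8211 and 6788 to 8164, and Fgb (-1.34), Ass1 (-0.45) and Apob (-0.83) fell, the last not without untreated replicate 2 or 4. The labels name the tissue as liver. The defining hepatocyte gene Alb was listed at 0 in every library but 1 and Cyp2e1 in all. A value of 0 can be a failed estimate, and other markers of this list, Fgb, Ass1 and Apob among them, were present. Ins1 was at 1811311 ± 252883 untreated.

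Of 17 stromal, endothelial and immune markers 7 reached the mean, with sums of 9493 to 13064 and 6128 to 8757. Thy1 (-0.54), Cd74 (-3.05) and Col1a1 (-1.98) fell, Cd68 (0.83) rose, and Dcn, Lum and Ptprc were listed at 0. Cd68 passed in full data at a limma adjusted p of 0.050 and was lost without any 1 of 7 libraries, all but iAs replicates 2 and 4. Col1a1 was lost without iAs replicate 4 or 5 or without untreated replicate 1, 3 or 4. Of 14 neuronal markers 12 reached the mean, with sums of 35370 to 38116 and 34018 to 34966. Gad1 (0.73), Mbp (0.37) and Rbfox3 (0.58) rose, and Syp (-0.20) and Neurod2 (-0.28), a relative of Neurod1, fell. Neurod2 was lost without untreated replicate 3 (limma adjusted p = 0.061), which leaves 1 fall.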

How the data were processed

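Polyadenylated RNA (9 libraries) and small RNA (12 libraries) were measured. The mRNA values are a signal that the authors deposited, read counts divided by DESeq2 normalization factors, per the labels. The submitters' processing notes name STAR, Salmon, DESeq2 and rn6, without versions or roles. The small RNA values are RPM of reads mapped to microRNAs (RPMMM), scaled by the authors, per the labels. Raw reads per library are not given, so depth enters only through the spread between libraries.

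Samples were grouped by the labelled treatment, and columns matched by the library code in the description, which differs from the code in the title for 4 mRNA libraries. Limma 3.58.1 in R 4.3.3 (with a trend) was run on log2(value + 1) for genes or rows with a mean of at least 10, adjusted by Benjamini-Hochberg over all tested, threshold 0.05. The small RNA fit held all 4 groups. The log2(value + 1) scale understates changes of low genes. The script was tested on simulated data.

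Named genes were the 9 factors, in each list the 2 called genes with the smallest adjusted p per direction, Hmox1, Mt1, Txnip, Ins1, Ins2, the nearest gene by Pearson r (mean at least 50) and the listed microRNAs. Iapp, Lmx1a, Hes1, Myt1, Rfx3, Ldb1, Ssbp2, Ssbp4, Cited2, Pbx3, Tle3, Mafk, Slc2a2, Ero1b, Ovol2, Ffar1, Scg5, Glp1r, Acot7, Rbpjl, Apob, Col1a1, Rbfox3 and genes listed at 0 were named outside it, after their values were seen. The members and lists were chosen with earlier results of these data known. Alternatives covered pseudocount, filter, scaling, model, blocks and left-out libraries. Sequences are from RefSeq. Some genes that the rule names are not reported here.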

Additional observations from a re-analysis of the deposited data

Results flagged for a closer look

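In groups of 4 or 5 mRNA libraries, 10 of 128 groups (64 genes) held 1 library whose gap to the nearest other was larger than Dixon's 95% limit allows, and chance flags about 1 group in 20. Among the 9 factors this was Nkx6-1 in untreated replicate 2, at 10587 normalized counts, with the next at 8041. The fall of Nkx6-1 without that library is given with its values above.

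The other libraries standing apart were single values of genes around the factors. Untreated replicate 4 was the highest untreated library for Hes1 (314), Maff (1817), Gast (342) and Gcg (133456). Untreated replicate 3 was the highest for Lmx1a (30.1), and untreated replicate 2 the lowest for Fgb (493). Among iAs libraries, replicate 2 was the highest for Maff (669) and the lowest for Thy1 (5782), and replicate 1 was the highest for Tle3 (4910). The small RNA groups of 3 were not examined in this way.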

How the results depend on the processing

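Nkx6-1 stayed lower and past the threshold in all 23 alternatives, between -0.51 and -0.36, with limma adjusted p from 2.7e-04 to 0.038. The count of called factors was 2, with Nkx2-2 added, under sample weights and with code ending 52 alone, and 1 to 1 with a library left out. The 4321 called genes became 3423 to 4068 with a library left out. With code ending 52 alone 3020 genes were called, and under sample weights 5360. A block on the ending of the library code called 5278 genes, with Nkx6-1 at -0.45 (limma adjusted p = 2.7e-04). Equal column totals gave 1787 higher and 2528 lower against 2181 and 2140, and moved the median of all genes from -0.0007 to -0.03.

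Same-numbered libraries did not deviate together (r 0.03, -0.04, 0.01 and -0.04 for mRNA), so the numbers were not taken as pairs. A replicate block called 2766 genes, and 2380 with numbers by the code in the title, with Nkx6-1 at -0.44 in the first. The block left the called microRNA rows at 2, and leaving out a library gave 0 to 2, with 0 without iAs replicate 3.

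Over single genes, microRNA rows and ratios, 1557 values under an alternative counted as unchanged, 87 lost a call, 2 gained one and 19 changed sign. For genes and microRNA rows, unchanged means the same direction and side of the threshold. For the ratios, which carry no test, it means the same direction and a shift smaller than the larger group SD.

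Differences near 0 changed sign without a call. Sample weights gave Pdx1 0.032 and Foxa2 0.0021. Code ending 52 alone gave Pdx1 0.049, Neurod1 0.049, Pax6 0.0085 and Foxa2 0.099. Leaving out a library gave -0.108 to 0.0496 for Pdx1, -0.0556 to 0.0263 for Foxa2, -0.0889 to 0.152 for Ins2, -0.0575 to 0.0219 for miR-204-5p and -0.0259 to 0.0883 for miR-375-3p. Ins2 was -0.0176 with equal totals and -0.0384 with quantile normalization, and miR-204-5p 0.0094 with median-of-ratios scaling. The cause was not tested. Reads per library were not given, so what depth limits could not be computed.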
